A study of Mus musculus with 4 samples.

Results

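Nuclear receptors of the estrogen-related family and the coactivators that work with them were followed in the stomach of mice that overexpress *c-Myc* in parietal cells. The 8 genes were *Esrra*, *Esrrb* and *Esrrg*, which encode the estrogen-related receptors ERRα, ERRβ and ERRγ, *Ppargc1a* and *Ppargc1b*, which encode the coactivators PGC1α and PGC1β, and the partner genes *Ppara*, *Nrf1* and *Tfam*. They were taken by name from a table of 46095 gene symbols, and all 8 passed the filter on low counts, as did 17643 genes in all. Gastric RNA had been sequenced from 2 WT and 2 *Atp4b-cre;MycOE* samples of C57BL/6 mice at 12 weeks of age. In *Atp4b-cre;MycOE* (*Atp4b-cre; Myc fl/+*) mice, Cre made from the promoter of *Atp4b*, the proton pump β subunit gene of parietal cells, turns on a human *c-Myc* transgene. The WT animals were *Myc fl/fl* littermates, so they carried the silent transgene without Cre. Bulk gastric tissue was profiled, and fewer cells of a type and less RNA per cell cannot be told apart in it.

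The estrogen-related receptors bind DNA without a known natural hormone and depend on PGC1 coactivators for strong transcription of genes of oxidative phosphorylation, the tricarboxylic acid cycle and fatty acid oxidation. Parietal cells, which pump acid, are packed with mitochondria, and ERRγ is known to be needed for their acid secretion genes. PPARα turns on fatty acid oxidation genes with the same coactivators, while NRF1 drives nuclear genes of the respiratory chain and *Tfam*, whose product packages and transcribes mitochondrial DNA.

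The pairing of names and counts was examined first. Names in the deposited table were sorted without regard to case. The counts in both transgenic columns, in contrast, matched the WT counts when they were read in the order of names sorted by character code. Those counts were therefore assigned, in their order, to the names sorted that way, and the WT columns stayed as deposited. Across all genes, Pearson's r between the mean log2(count + 1) of the genotypes was 0.524 as deposited and 0.985 after re-sorting, and genes are not independent replicates. Under either order the 3 receptor genes *Esrra*, *Esrrb* and *Esrrg* keep their row, as do 3109 names (6.74%) in all, so their counts do not depend on the re-sorting. *Ppargc1a*, *Ppargc1b*, *Ppara* and *Tfam* moved by 397 rows and *Nrf1* by 27. Over the 61 rows around each of the 8 genes, r was 0.979 to 0.987 after re-sorting, against -0.078 to 0.132 as deposited around the 5 genes that moved.

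The samples held 30260305 to 41463647 counts. Chi-square per degree of freedom between replicates was 22.7 for the WT pair and 74.9 for the transgenic pair, above the 1 that counting noise alone would give. The labels number the replicates but do not say that each came from a separate animal, so p-values measure the spread between these samples. WT replicate 2 alone was marked as female, since it held 17846 *Xist* counts against 85 to 201 in the other samples and 5 counts of the Y-linked *Ddx3y* against 1861 to 2623. For the mouse *Myc* gene the counts were 1062 and 759 in the WT samples and 735 and 1091 in the transgenic samples after re-sorting (edgeR quasi-likelihood test, log2 fold change -0.35 ± 0.14 SE, Benjamini-Hochberg adjusted p = 0.163). As deposited, that row held 4920 and 6600 transgenic counts, and over the rows around it r was 0.045 as deposited and 0.974 after re-sorting. The table has no row for the human transgene, so mouse *Myc* does not check the genotype labels. Of the genes tested, 896 (5.08%) were called lower and 996 (5.65%) higher in *Atp4b-cre;MycOE* stomach (10.7% either way), where a call is an adjusted p under 0.05 with a change of over 1.5-fold.

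*Esrrg* and *Esrrb* fell steeply in *Atp4b-cre;MycOE* stomach, while *Esrra*, the third receptor, did not pass the test. Thus 2 of the 8 genes were called lower, beside the 5.08% of all tested genes, and 0 were called higher, beside 5.65%. One further gene, *Tfam*, had a positive fold change at an unadjusted p under 0.05 in edgeR. Such a p was found for 6024 of all 17643 tested genes, in either direction. DESeq2 also called 0 of the 8 higher. *Ppargc1a* and *Ppara* had lower values that did not pass, and *Ppargc1b* and *Nrf1* lay close to their WT levels. With library size in place of scaling factors, the log2 fold change was 0.26 for *Esrra*, 0.24 for *Ppargc1b* and 0.36 for *Nrf1*. In that setting the median of all tested genes was 0.23, and 0 of the 8 were called higher. Levels below are counts per 1000000 of a library size adjusted by TMM scaling factors (CPM). They are given for replicates 1 and 2 of each genotype.

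**Figure D1:**
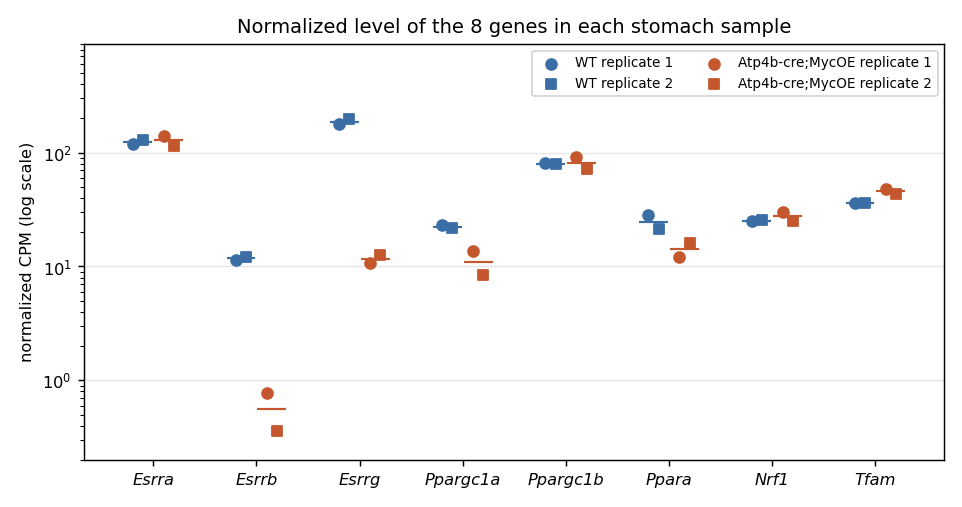
Normalized CPM on a log axis for each of the 8 genes, with WT in blue and *Atp4b-cre;MycOE* in orange, circles for replicate 1, squares for replicate 2 and bars for the mean of 2 samples. *Esrrg* lay at 177 and 198 CPM in WT and at 10.6 and 12.6 in transgenic samples, *Esrrb* at 11.4 and 12.1 against 0.767 and 0.358, and the log2 fold changes of the other 6 genes lay between -1.02 and 0.33.

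*Esrrg* (chr1:187608791-188214885, plus strand, GRCm38, a protein-coding gene) encodes ERRγ. The WT samples held 5928 and 5532 counts and the transgenic samples 361 and 561. In normalized CPM these were 177 and 198 in WT and 10.6 and 12.6 in transgenic samples, so both transgenic values lay far below both WT values. The mean was 187 ± 15.3 CPM in WT and 11.6 ± 1.35 in *Atp4b-cre;MycOE* (SD, n = 2 each). The log2 fold change was -4.01 ± 0.14 (SE), a 16.1-fold lower level, with an adjusted p of 0.00635 (edgeR quasi-likelihood test, Benjamini-Hochberg). Among all tested genes, 105 (0.595%) had a lower log2 fold change.

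*Esrrb* (chr12:86361117-86521628, plus strand, protein coding) encodes ERRβ, known best from pluripotent cells and the inner ear. The WT samples held 384 and 338 counts and the transgenic samples 26 and 16. These were 11.4 and 12.1 CPM in WT and 0.767 and 0.358 in transgenic samples, again with no overlap. The mean went from 11.8 ± 0.476 to 0.562 ± 0.289 CPM (SD, n = 2 each), a log2 fold change of -4.40 ± 0.44 (SE) or a 21.1-fold lower level (edgeR, adjusted p = 0.0198). A lower log2 fold change was found for 82 tested genes (0.465%). The transgenic samples held 26 and 16 counts, and the standard error of *Esrrb* (0.44) was larger than that of *Esrrg* (0.14).

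Both receptors were lower in every fit with 1 sample left out, but the calls depended on having 2 WT samples. The log2 fold change of *Esrrg* ranged from -4.14 to -3.90 and that of *Esrrb* from -5.02 to -3.93. Without WT replicate 1 or WT replicate 2, edgeR called 0 of all tested genes, with 3554 and 3410 genes at an unadjusted p under 0.05, and the adjusted p of both receptors was 0.196 and 0.232. Without transgenic replicate 1 or 2 both receptors were still called. Tested among unmoved names alone, 1355 of which passed the filter, *Esrrg* stood at -4.05 (adjusted p = 0.00493) and *Esrrb* at -4.44 (adjusted p = 0.0238).

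*Esrra* (chr19:6910977-6921813, minus strand, protein coding) encodes ERRα, the receptor found in most oxidative tissues. The WT samples held 4019 and 3612 counts and the transgenic samples 4794 and 5110, which were 120 and 129 CPM against 141 and 114, so the genotypes overlapped. The log2 fold change was 0.04 ± 0.13 (SE; edgeR, adjusted p = 0.871) and its sign turned when WT replicate 1 or transgenic replicate 1 was left out. The gene overlaps *Trmt112* on the opposite strand, with counts of 240 and 251 in WT against 344 and 521 in transgenic samples. Whether reads were counted by strand is not stated in the sources used here.

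The make-up of the receptor family thus differed between the genotypes. Per kilobase of exon (GENCODE M21), *Esrrg* made up 49.4% and 50.3% of the summed level of the 3 receptors in WT and 5.03% and 7.18% in transgenic samples. *Esrra* made up 47.4% and 46.5% in WT and 94.6% and 92.6% in transgenic samples. *Esrrb* made up 3.28% and 3.16% in WT and 0.372% and 0.210% in transgenic samples. WT stomach therefore held *Esrra* and *Esrrg* at close to equal levels per length, whereas nearly all receptor signal in transgenic stomach came from *Esrra*.

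The promoters of the receptors that fell are shown for reference, since both genes changed together. RefSeq promoters on GRCm38.p6, from 250 bases before to 50 after an annotated start, were found for 7 of the 8 genes, 12 promoters in all (4 of *Esrrg*, 2 of *Esrrb*), and *Ppargc1b* had no entry. They were searched on both strands for TCAAGGTCA, the extended ERR response element, for AAGGTCA, the core ERR site that lies within it, and for CACGTG, the E-box bound by MYC. Among all 32851 promoters, 139 (0.423%), 1550 (4.72%) and 2349 (7.15%) held these motifs, and none of the 12 promoters held any of the 3. No match says only that these letters are not in this window. The 120 bases before 1 annotated start of each receptor gene are printed below, in lower case because they hold no searched motif, for *Esrrb* at chr12:86360997-86361116 (plus strand, 65% G or C) and for *Esrrg* at chr1:187608886-187609005 (plus strand, 48.3% G or C).
Esrrb: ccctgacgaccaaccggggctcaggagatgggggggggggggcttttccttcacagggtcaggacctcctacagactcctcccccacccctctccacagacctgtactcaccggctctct
Esrrg: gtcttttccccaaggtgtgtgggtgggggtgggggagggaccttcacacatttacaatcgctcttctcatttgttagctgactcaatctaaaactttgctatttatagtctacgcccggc

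The core ERR site was also searched in the promoters of 4 gene lists described further on, and every window that held it is shown, whichever way the gene changed. The genes were *Acadm*, *Kcnj16* and *Ogdh*, which were called lower in *Atp4b-cre;MycOE* stomach, and *Peo1*, which was called higher. The capitals mark AAGGTCA in *Peo1* and, in the others, TGACCTT, the same site read from the opposite strand. It began 249 bases before the start of *Acadm* (chr3:153944866-153944893, minus strand), 190 bases before that of *Kcnj16* (chr11:110967823-110967869, plus strand), 5 bases before that of *Ogdh* (chr11:6292145-6292179, plus strand) and 123 bases before that of *Peo1* (chr19:45005520-45005566, plus strand).
Acadm: gTGACCTTcgggctccggtgacactggg
Kcnj16: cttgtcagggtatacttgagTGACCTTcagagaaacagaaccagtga
Ogdh: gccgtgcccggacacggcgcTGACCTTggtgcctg
Peo1: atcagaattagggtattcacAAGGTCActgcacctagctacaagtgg
The core site was in 2 of 27 promoters (7.41%) of the mitochondrial target genes, in 1 of 15 (6.67%) of the acid secretion genes, in 1 of 17 (5.88%) of the PPARα targets and in 1 of 20 (5%) of the mitochondrial DNA machinery, beside 4.72% of all promoters. Promoters were found for 20 of 26 mitochondrial target genes and 9 of 16 acid secretion genes. They were also found for 17 of 23 PPARα targets and 17 of 19 machinery genes. *Acadm* is a member of both the mitochondrial target and the PPARα lists, so its site is counted in both. A match is a description of the letters.

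Of the PGC1 coactivators, *Ppargc1a* had lower values in both transgenic samples and *Ppargc1b* did not. *Ppargc1a* (chr5:51454250-51567726, minus strand, protein coding) encodes PGC1α, the inducible coactivator of mitochondrial biogenesis. Counts were 771 and 607 in WT against 466 and 373 in transgenic samples, or 23.0 and 21.8 CPM against 13.7 and 8.35, with no overlap. Its log2 fold change of -1.02 ± 0.28 (SE), a 2.03-fold lower value, did not pass the test (edgeR, adjusted p = 0.0821). That call depended on the setting, since DESeq2 gave -1.03 with an adjusted p of 0.00665, and leaving out transgenic replicate 1 gave -1.42 with an adjusted p of 0.0264. Without transgenic replicate 2 the value was -0.70.

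*Ppargc1b* (chr18:61298136-61400431, minus strand, protein coding) encodes PGC1β, the coactivator that is less responsive to cold and fasting. Counts were 2707 and 2219 in WT against 3097 and 3186 in transgenic samples, or 80.7 and 79.5 CPM against 91.3 and 71.3. The WT values lay between the transgenic ones, and the log2 fold change was 0.02 ± 0.14 (SE; edgeR, adjusted p = 0.932). It became -0.17 without transgenic replicate 1. The ratio of *Ppargc1a* to *Ppargc1b* counts was 0.285 and 0.274 in WT and 0.150 and 0.117 in transgenic samples, so it was lower in both transgenic samples than in both WT samples.

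None of the 3 partner genes passed the test. *Ppara* (chr15:85734983-85802819, plus strand, protein coding) encodes PPARα. Its counts of 949 and 595 in WT compared with 412 and 720 in transgenic samples, or 28.3 and 21.3 CPM against 12.1 and 16.1, with no overlap between genotypes. The log2 fold change was -0.81 ± 0.23 (SE; edgeR, adjusted p = 0.0882), a 1.75-fold lower value, and DESeq2 gave -0.82 with an adjusted p of 0.0129.

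*Nrf1* (chr6:30047988-30153458, plus strand, protein coding) encodes nuclear respiratory factor 1. Its counts of 842 and 712 in WT compared with 1030 and 1123 in transgenic samples, or 25.1 and 25.5 CPM against 30.4 and 25.1. The genotypes overlapped, and the log2 fold change was 0.13 ± 0.14 (SE; edgeR, adjusted p = 0.549), and -0.0081 without transgenic replicate 1.

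*Tfam* (chr10:71225464-71238280, minus strand, protein coding) encodes the mitochondrial transcription factor A, which coats mitochondrial DNA. Its counts of 1217 and 1017 in WT compared with 1632 and 1946 in transgenic samples, or 36.3 and 36.5 CPM against 48.1 and 43.6. Both transgenic values lay above both WT values, and the log2 fold change was 0.33 ± 0.10 (SE; edgeR, adjusted p = 0.0903), a 1.26-fold higher value that did not pass. With library size in place of scaling factors, which moves the median log2 fold change of all genes from 0.01 to 0.23, *Tfam* stood at 0.56 (adjusted p = 0.0278), still under the fold change threshold. The ratio of *Tfam* to *Nrf1* counts was 1.45 and 1.43 in WT and 1.58 and 1.73 in transgenic samples.

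Ordered by normalized CPM per kilobase of exon, *Esrrg* was the highest of the 8 genes in WT and only the sixth in transgenic stomach. In WT the mean levels were 30.2 for *Esrrg*, 28.4 for *Esrra*, 20.1 for *Ppargc1b*, 8.19 for *Tfam*, 6.47 for *Ppara*, 3.39 for *Ppargc1a*, 2.46 for *Nrf1* and 1.95 for *Esrrb*. *Esrrg* at 28.5 and 31.9 and *Esrra* at 27.3 and 29.5 per kilobase overlapped in WT, so their order is not beyond their spread. In transgenic stomach the mean levels per kilobase were 29.1 for *Esrra*, 20.4 for *Ppargc1b*, 10.3 for *Tfam*, 3.68 for *Ppara*, 2.70 for *Nrf1*, 1.87 for *Esrrg*, 1.68 for *Ppargc1a* and 0.093 for *Esrrb*. There *Esrrg* at 1.71 and 2.02 and *Ppargc1a* at 2.08 and 1.27 per kilobase overlapped. Levels per length rest on all annotated exons and not on the transcripts the stomach uses.

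**Figure D2:**
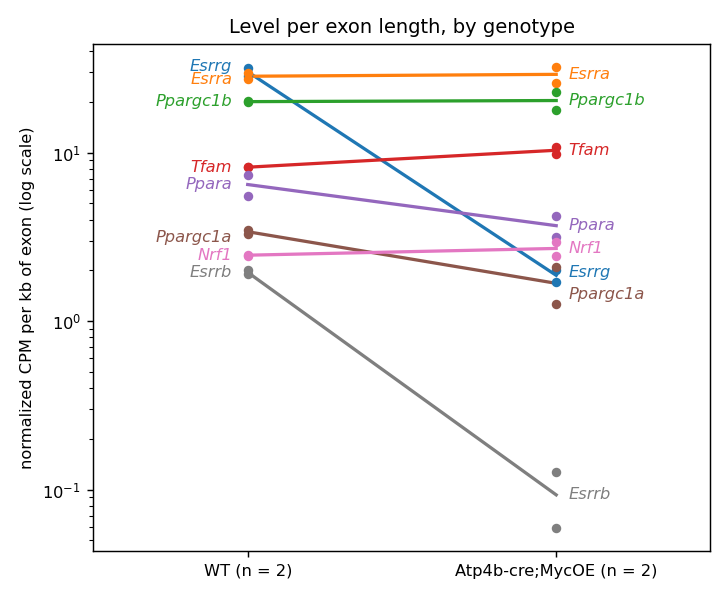
Normalized CPM per kilobase of exon on a log axis for the 8 genes in WT and *Atp4b-cre;MycOE* stomach, with points for the 2 samples of each genotype and lines joining the means. The line of *Esrrg* falls from the top of the order to the sixth place (30.2 to 1.87), *Esrrb* drops from 1.95 to 0.093, and *Esrra* goes from 28.4 to 29.1 and *Ppargc1b* from 20.1 to 20.4.

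The genes whose pattern was most like those of *Esrrg*, *Esrrb* and *Ppargc1a* were found by Euclidean distance of centred log2 CPM over the 4 samples, among 10877 genes. Nearest to *Esrrg* were *Sec14l4* (distance 0.399), *Kcnj15* (0.427), a potassium channel gene of the acid secretion list, and *Tmem151a* (0.430). *Kcnj15* had 49.5 and 57.4 CPM in WT and 3.74 and 5.06 in transgenic samples. Nearest to *Esrrb* were *Gif* (0.250), the gene of gastric intrinsic factor and listed here as a chief cell marker, *Pdia2* (0.591) and *Aqp4* (0.731), the water channel of parietal cells. *Gif* had 1776 and 1678 CPM in WT and 101 and 58.5 in transgenic samples, and transgenic replicate 2 was the lowest sample for it as for *Esrrb*. Nearest to *Ppargc1a* were *Mia2* (0.140), *Dock8* (0.147) and *Ppp1r16b* (0.184). The points are 4 samples from 4 libraries, so likeness describes these libraries only.

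The acid secretion genes of parietal cells fell with *Esrrg*. Of 16 such genes, all tested, 13 were called lower and 0 higher, and all 16 had a negative log2 fold change, with a median of -3.70 beside 0.01 over all tested genes. *Atp4a*, the catalytic subunit of the proton pump, fell from 7816 ± 188 to 163 ± 34.4 CPM (SD, n = 2 each), a log2 fold change of -5.59 (edgeR, adjusted p = 0.00884). *Atp4b*, whose promoter also drives the Cre of this model, fell by 5.82 on the log2 scale (edgeR, adjusted p = 0.00635). The potassium channel genes *Kcnj16* at -5.96 and *Kcne2* at -5.36 were called lower too (edgeR, adjusted p = 0.00975 and 0.00447). *Car2*, carbonic anhydrase 2, at -0.30 and *Ezr*, the ezrin gene, at -0.54 did not pass (edgeR, adjusted p = 0.120 and 0.0590). *Slc12a2*, a chloride cotransporter gene, was the other one not called (-0.59, adjusted p = 0.238). Each of the 16 genes stands on a row that the re-sorting moved.

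**Figure D3:**
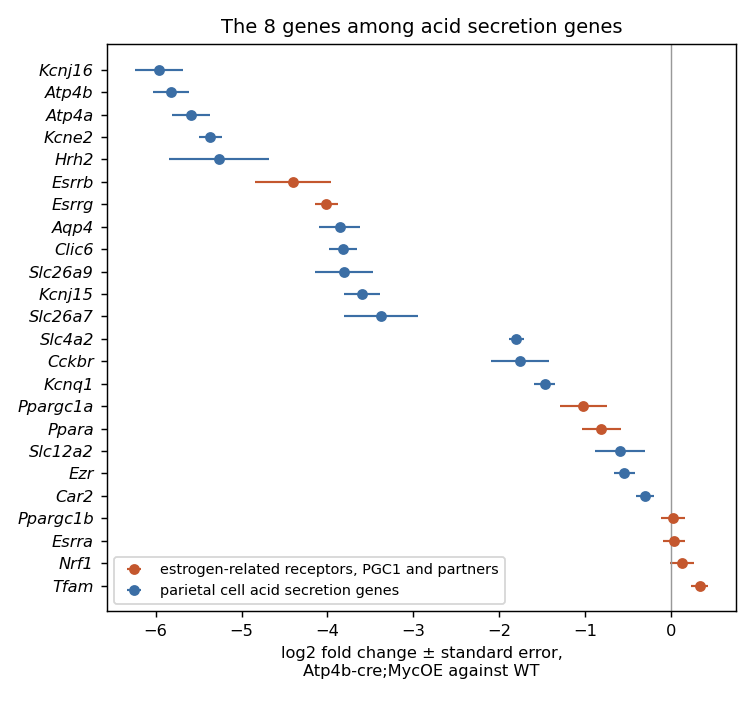
Log2 fold change of *Atp4b-cre;MycOE* against WT stomach with its standard error, for the 8 genes in orange and 16 acid secretion genes of parietal cells in blue, in order of size. *Esrrb* (-4.40) and *Esrrg* (-4.01) lie among the acid secretion genes, between *Hrh2* (-5.26) and *Aqp4* (-3.86), whereas *Esrra*, *Ppargc1b*, *Nrf1* and *Tfam* lie at 0.02 to 0.33.

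*Esrrg* fell less than the proton pump and more than *Kcnq1*, the potassium channel that recycles potassium for acid secretion. The number of *Esrrg* counts per *Atp4a* count was 0.0230 and 0.0249 in WT and 0.0769 and 0.0671 in transgenic samples, so it was higher in both transgenic samples. Per *Kcnj16* count it was 0.706 and 0.698 in WT against 3.19 and 2.42. Per *Kcnq1* count it was 0.909 and 1.08 in WT against 0.143 and 0.203. These ratios are descriptions with no test.

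Markers of several other cell types were lower in transgenic samples as well. Chief cell markers (4 of 5 tested called lower, with *Lipf* at 0 in every sample) summed to 84853 and 80511 CPM in WT and 1198 and 1518 in transgenic samples, and surface mucous markers (4 of 4 lower) to 44889 and 53560 against 10957 and 17193. Pancreatic acinar markers summed to 10200 and 8939 CPM in WT and 146 and 168 in transgenic samples, with *Cpa1*, *Prss2* and *Amy2a5* at 0 in all samples and 4 of 5 tested called lower. *Pla2g1b* alone gave 9805 and 8607 CPM of the WT sums, and the elastase gene *Cela1* differed far less, at 247 and 211 CPM in WT and 124 and 145 in transgenic samples. Of 8 adipocyte markers tested 2 were called lower (*Fabp4* and *Lep*), *Ucp1* was at 0 in all samples, and the sums were 202 and 529 CPM in WT, highest in WT replicate 2, against 38.7 and 61.025. Of 6 leukocyte markers the 3 myeloid ones (*Lyz2*, *Adgre1* and *Itgam*) were called lower, and the sums of 186 and 199 CPM in WT against 78.5 and 69.2 were mostly *Lyz2*. The general leukocyte marker *Ptprc* overlapped between genotypes (14.99 and 21.2 CPM in WT, 21.9 and 13.3 in transgenic samples), as did the lymphocyte markers *Cd3e* and *Cd79a*. Of the hepatocyte markers 0 of 6 were called, and their sums of 957 and 1568 CPM in WT and 264 and 44.3 in transgenic samples were mostly *Apoa1*. WT replicate 2 stood apart in the others, with *Alb* at 455 CPM against 5.45 in WT replicate 1 and 1.53 and 12.6 in transgenic samples. Transgenic replicate 2 stood apart in skeletal muscle markers, at 1220 CPM against 17.0 to 133 in the others, and in squamous epithelium of the forestomach, at 4060 against 800 to 2400. Smooth muscle markers spanned 2591 to 7886 CPM and mucous neck markers 8667 to 19714, with overlapping genotypes, and proliferating cell markers (2 of 5 called higher) summed to 302 and 288 in WT and 459 and 400 in transgenic samples. The part of these cells in the values of the 8 genes was not tested, and *Esrrg* stood at 10.6 CPM in transgenic replicate 1, where skeletal muscle markers were lowest, and at 12.6 in replicate 2, where they were highest.

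**Figure D4:**
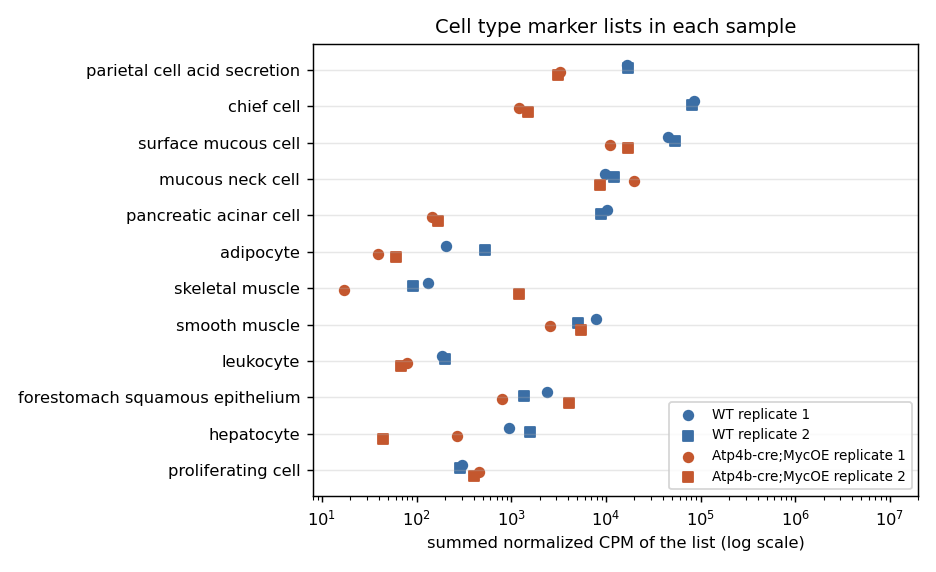
Summed normalized CPM on a log axis of each cell type marker list, with WT in blue, *Atp4b-cre;MycOE* in orange, circles for replicate 1 and squares for replicate 2. Parietal, chief and surface mucous markers are lower in both transgenic samples, and the skeletal muscle sum of transgenic replicate 2 (1220 CPM) lies above the other 3 samples.

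The 6 lists of pathway genes around the receptors and coactivators held 125 genes, 120 of which were tested, and 7 were called higher and 10 lower. Called lower were 8.33% of the tested genes and called higher 5.83%, beside 5.08% and 5.65% of all tested genes.

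Among coregulators of PGC1 and the ERRs, 3 of 17 were called higher and 0 lower, with a median log2 fold change of 0.02. *Mybbp1a*, which encodes a repressor of PGC1α, went from 109 ± 0.361 to 256 ± 19.9 CPM (SD, n = 2 each; log2 fold change 1.23 ± 0.09 SE; edgeR, adjusted p = 0.0161). *Kat2a*, which encodes the acetyltransferase GCN5 that modifies PGC1α, rose by 0.76 (adjusted p = 0.0233), and *Pprc1*, which encodes the other PGC1 family member, rose by 0.65 (adjusted p = 0.0392). The call of *Pprc1* was lost without transgenic replicate 1 (0.52, adjusted p = 0.0534). The corepressor gene *Ncor1* stood at 0.02 and did not pass. Signalling genes that act on PGC1, such as AMPK subunits, CREB and MEF2 factors, had 0 of 21 called by edgeR and 1 by DESeq2. An unadjusted p under 0.05 in edgeR was found for 6 of 21, beside 6024 of all 17643 tested genes. The median log2 fold change of the signalling genes was -0.18. Of these *Stk11*, the LKB1 kinase gene, stood at -0.07 and *Mef2d* at -0.05.

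Mitochondrial DNA machinery rose in part, with 4 of 19 genes called higher, 0 lower, 15 positive and a median log2 fold change of 0.19, and 1 was called without transgenic replicate 1. DESeq2 called 3 of them higher and 1 lower, the termination factor gene *Mterf2*, which edgeR put at -0.92 without a call (adjusted p = 0.0897) and which is named after its value was seen. *Top1mt*, the mitochondrial topoisomerase gene, went from 7.95 ± 0.299 to 16.4 ± 1.70 CPM (SD, n = 2 each; log2 fold change 1.05; edgeR, adjusted p = 0.0335). *Ssbp1*, which encodes the single-strand DNA binding protein of mitochondria, and *Peo1*, the Twinkle helicase gene, each rose by 0.77 (adjusted p = 0.0363 and 0.0272). *Tfb2m*, a partner of TFAM in transcription, was called close to the fold change threshold, at 20.3 and 30.5 mean CPM (adjusted p = 0.0498), and was not called by DESeq2 or without either transgenic replicate. *Lonp1* at 0.18 and *Gabpb2* at 0.12 did not pass. Every gene of this list stands on a row that the re-sorting moved.

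Mitochondrial genes known as ERR and PGC1 targets tended to lower values, with 4 of 25 tested called lower, 0 higher, 23 negative and a median log2 fold change of -0.33. *Ogdh*, a tricarboxylic acid cycle enzyme gene, went from 912 ± 42.2 to 513 ± 0.041 CPM (SD, n = 2 each; log2 fold change -0.83; edgeR, adjusted p = 0.0212). Also called lower were *Acadm*, the medium-chain acyl-CoA dehydrogenase gene, at -0.78 (adjusted p = 0.0188), *Cycs*, the cytochrome c gene, at -0.77 (adjusted p = 0.0212) and *Sod2*, the mitochondrial superoxide dismutase gene, at -0.70 (adjusted p = 0.0250). With library size 1 gene of the list was called lower and 1 higher, and *Acadm*, *Cycs* and *Sod2* at -0.56, -0.55 and -0.47 were no longer called. The re-sorting did not move *Cycs*. The ATP synthase subunit genes *Atp5b* and *Atp5a1* stood at -0.34 and -0.26 and did not pass (adjusted p = 0.0937 and 0.131). *Cpt1b* did not pass the filter on low counts.

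PPARα targets had 4 of 20 tested genes called lower, 0 higher and a median log2 fold change of -0.40, and *Fgf21*, *Angptl4* and *Cyp4a14* did not pass the filter. *Cd36*, a fatty acid transporter gene also strong in fat and endothelium, had 152 and 189 CPM in WT and 13.7 and 27.2 in transgenic samples (log2 fold change -3.06 ± 0.38 SE; edgeR, adjusted p = 0.0245). The summed adipocyte markers were lower in the same samples, with 2 of 8 called, and their part was not tested. *Acadl*, a long-chain acyl-CoA dehydrogenase gene, at -0.59 (edgeR, adjusted p = 0.0287) was called lower, while *Hadha* at -0.39 and *Cpt1a* at -0.24 did not pass. The call of *Acadl* lay close to the fold change threshold and was lost without the filter on low counts (-0.58), with library size (-0.37) and without transgenic replicate 2 (-0.56). *Acadm* is counted in this list too. With library size 1 gene of the list was called lower and 2 higher, and DESeq2 called 5 lower and 1 higher. The highest value, 2.25 for *Vnn1*, did not pass in edgeR (adjusted p = 0.0677), and this gene is named after its value was seen.

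Other nuclear receptors had 3 of 20 tested genes called lower, 0 higher and a median log2 fold change of -0.18. *Nr0b2*, which encodes the repressor SHP, went from 14.7 ± 1.99 to 3.57 ± 0.493 CPM (SD, n = 2 each; log2 fold change -2.04; edgeR, adjusted p = 0.0211). *Nr3c1*, the glucocorticoid receptor gene, at -0.68 and *Thra*, the thyroid hormone receptor α gene, at -0.65 were called lower (adjusted p = 0.0213 and 0.0234). With library size 1 gene of the list was called, and *Nr3c1* and *Thra* stood at -0.46 and -0.43. *Hnf4a* at 0.22 and *Rxra* at -0.05 did not pass, and *Esr2* did not pass the filter.

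**Figure D5:**
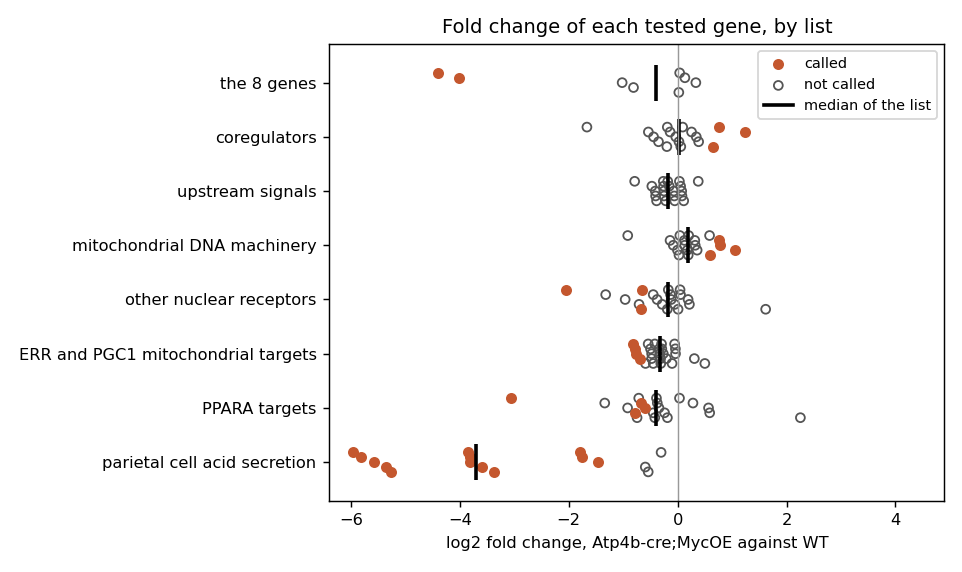
Log2 fold change of *Atp4b-cre;MycOE* against WT stomach for each tested gene of the 8 described, of the 6 pathway lists and of the acid secretion list, with filled points for called genes and black bars for medians. The acid secretion list (median -3.70) and *Esrrb* and *Esrrg* lie far to the left, while the medians of the pathway lists lie between -0.40 and 0.19.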

How the data were processed

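The authors deposited 1 table of raw read counts per gene symbol, without normalization. Submitters' processing notes name HISAT2 and the build mm10, and the counting tool, its strand setting and the annotation are not given in the sources used here. Counts of both transgenic columns were assigned, in row order, to the names sorted by character code. The test was edgeR's quasi-likelihood test (edgeR 4.0.16, R 4.3.3) on all 4 samples without covariates, after filterByExpr and TMM scaling, with Benjamini-Hochberg adjustment over all tested genes. Calls used the study's thresholds, an adjusted p under 0.05 with a change of over 1.5-fold. The study used DESeq2, and DESeq2 1.42.0 was an alternative here. The tests were checked on simulated data in which 200 genes had a log2 fold change of 2 in either direction. Smaller changes were not simulated. Coordinates and exon lengths are from GENCODE M21 on GRCm38. From each list, the called genes (at most 4 in each direction, by size of change) and the 2 uncalled genes with the highest mean CPM are named, and *Slc12a2*, *Kcnq1*, *Hrh2* and *Aqp4* of the acid secretion list were named after their values were seen. Some genes that this rule names are not reported here. The genes and lists were chosen with earlier results of these data known. The common dispersion had a square root of 0.295. Alternatives covered normalization, filters, thresholds, a replicate block, the deposited row order and leaving out each sample. The fit on unmoved names was chosen after seeing the data.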

Additional observations from a re-analysis of the deposited data

How the results depend on the processing

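With 2 samples per genotype a left-out sample leaves an arm of 1, whose spread is assumed to match the other arm. Genes called higher numbered 996 here, 1502 with DESeq2, 2272 with library size (and 739 lower), 464 with an absolute log2 fold change above 1, 61 among unmoved names, 9422 in the deposited order and 0 to 1064 with 1 sample left out. Genes called lower numbered 896 here, 1730 with DESeq2, 71 among unmoved names, 9158 in the deposited order and 0 to 1406 with 1 sample left out. Of the 8 genes, 2 were called lower here, 4 with DESeq2, 7 in the deposited order and 0 to 3 with 1 sample left out. In the pathway lists, 7 genes were called higher here, 13 with library size, 2 above 1, 18 in the deposited order and 0 to 6 with 1 sample left out, and 10 were called lower here, 3 with library size, 2 above 1, 72 in the deposited order and 0 to 14 with 1 sample left out.

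The replicate numbers only name samples (the correlation of same-numbered deviations was 0.067). With the replicate number as a replicate block, 27 genes were called higher and 87 lower. Under that block 1 of the 8 genes was called (*Esrrg*, -4.02, adjusted p = 0.0337, against 0.0545 for *Esrrb*), and 0 pathway genes were called higher and 1 lower (*Cd36*).

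The log2 fold change changed sign in the deposited order for *Ppargc1b* (-14.42), *Nrf1* (-2.06), *Tfam* (-2.34), *Gabpb2* (-5.69), *Hnf4a* (-9.87), *Lonp1* (-3.65), *Mybbp1a* (-1.79), *Ncor1* (-1.62), *Nr0b2* (2.31) and *Pprc1* (-4.92), where names and counts do not match. With library size it did for *Mef2d* (0.17), *Rxra* (0.17) and *Stk11* (0.15), and among unmoved names for *Esrra* (-0.0003). With 1 sample left out it did for *Esrra* (-0.12 to 0.18), *Ppargc1b* (-0.17 to 0.19), *Nrf1* (-0.0081 to 0.26), *Mef2d* (-0.16 to 0.045), *Ncor1* (-0.038 to 0.084), *Rxra* (-0.12 to 0.011) and *Stk11* (-0.20 to 0.070). The cause was not tested beyond the row order.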

Other observations

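The 13 protein genes of mitochondrial DNA, whose transcription depends on TFAM, were examined after the other values had been seen. They summed to 49429 and 49379 CPM in WT and 37759 and 34204 in transgenic samples, so both transgenic sums lay below both WT sums. *COX1* alone gave 25363 and 25166 CPM of the WT sums and 19367 and 17082 of the transgenic sums. *COX3* had 41.5 and 45.2 CPM in WT and 25.3 and 21.9 in transgenic samples. All 13 were tested and had a negative log2 fold change, with a median of -0.47, beside 0.01 over all tested genes, and a range of -0.88 to -0.06. Of these, 2 were called lower (edgeR, Benjamini-Hochberg adjusted p of 0.0288 for *COX3* and 0.0329 for *ND2*) and 0 higher, beside 5.08% and 5.65% of all tested genes. The nuclear genes of the mitochondrial DNA machinery had a median of 0.19 in the same samples.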
